A study of Mus musculus with 6 samples.

Results

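The choroid is the vascular coat behind the retinal pigment epithelium (RPE), and its innermost capillary bed, the choriocapillaris, feeds the RPE and the outer retina. RPE-enriched tissue taken from an opened eye carries RNA of these vessels. The genes described here are 10 endothelial genes chosen by name: Flt1, Kdr, Tek, Tie1, Pecam1, Cdh5, Esam, Plvap, Eng and Egfl7. All 10 were found among the 14008 named entries of the deposited table. The mice were male C57BL/6J, an inbred laboratory strain, aged 8 to 10 weeks, with no other allele or agent named in the labels. Eyes were collected at circadian time 23 (CT23) or at circadian time 1 (CT1), just before and just after subjective dawn. There were 3 libraries for each time, made from pools of 2 RPE samples. The eye cup left after the lens side and the retina were removed held RPE, choroid and sclera, and RPE cells were freed from it by brief sonication. The labels name RPE as the tissue and describe no sort for or against endothelial cells. Wherever 3 values are given for a time, they are in the order of replicates 1, 2 and 3.

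Vascular endothelial growth factor (VEGF), which the RPE itself secretes, acts on endothelial cells through the tyrosine kinase receptors encoded by Flt1 and Kdr and keeps the choriocapillaris alive and fenestrated. Angiopoietins act through the receptor encoded by Tek, whose partner is the orphan receptor encoded by Tie1, and stabilise mature vessels. Pecam1, Cdh5 (VE-cadherin) and Esam encode adhesion molecules of endothelial cell contacts. Plvap encodes the protein of the diaphragms that span endothelial fenestrae, Eng encodes endoglin, a co-receptor for bone morphogenetic proteins, and Egfl7 encodes a secreted endothelial protein and carries the microRNA miR-126 within it.

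Promoter stretches are shown for 6 of the 10 genes, those matched in RefSeq's table (build GRCm38.p6), so that the motif matches of the receptor genes, Eng and Egfl7 can be read beside their values. Each line gives the 120 bases before the start site, 5′ to 3′ on the gene's strand. Egfl7 has 3 start sites, of which the first and the second are shown. Capitals mark matches to either of a pair of motifs of ETS transcription factors, which act in endothelial cells: ETS (ACNGGAAG) and the composite FOX:ETS core (AACAGGAA), searched on both strands.
Flt1, chr5:147726012-147726131, minus strand: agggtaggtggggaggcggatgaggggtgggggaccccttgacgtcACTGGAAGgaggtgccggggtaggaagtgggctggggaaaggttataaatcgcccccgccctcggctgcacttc
Kdr, chr5:75978456-75978575, minus strand: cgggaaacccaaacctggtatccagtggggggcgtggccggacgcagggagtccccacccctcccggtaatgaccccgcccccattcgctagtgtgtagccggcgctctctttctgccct
Tek, chr4:94739169-94739288, plus strand: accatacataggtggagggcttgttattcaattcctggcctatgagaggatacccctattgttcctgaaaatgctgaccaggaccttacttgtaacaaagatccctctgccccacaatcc
Tie1, chr4:118489850-118489969, minus strand: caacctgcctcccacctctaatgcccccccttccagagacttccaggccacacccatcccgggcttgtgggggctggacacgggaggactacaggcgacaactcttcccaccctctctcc
Eng, chr2:32646475-32646594, plus strand: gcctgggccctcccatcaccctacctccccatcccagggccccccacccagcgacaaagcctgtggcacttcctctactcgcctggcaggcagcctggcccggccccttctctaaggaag
Egfl7, chr2:26580963-26581082, plus strand: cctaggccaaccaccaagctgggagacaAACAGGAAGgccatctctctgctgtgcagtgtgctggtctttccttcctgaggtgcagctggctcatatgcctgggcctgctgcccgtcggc
Egfl7, chr2:26583745-26583864, plus strand: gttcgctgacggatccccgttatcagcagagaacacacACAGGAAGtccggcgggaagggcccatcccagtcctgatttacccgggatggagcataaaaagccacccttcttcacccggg

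In the 250 bases before each start site, the ETS letters were found in 3 of the 8 windows of these genes, 1 of Flt1 and 2 of Egfl7, against 6.57% of all 32851 windows. The FOX:ETS core was found in 1, the first Egfl7 window, where it overlaps the ETS match, against 2.25% of all windows. The circadian E-box (CACGTG) was in none of the 8 windows and in 6.02% of all, and the GATA letters (AGATAA) were in none of the 8 and in 9.99% of all. These matches are descriptions of letters, and the windows of Kdr, Tek, Tie1 and Eng held none of the 4 motifs.

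Levels are given as CPM, a gene's reads divided by its library's total and scaled alike for all libraries. Totals were 12612330 to 13651486 reads. A 3′ end kit was used, so reads mark transcript ends. A single read was worth 0.0733 to 0.0793 CPM. Reads of the entries in the deposited table, called listed reads here, were 12.7% to 32.3% of each total. Crystallin RNA, which belongs to the lens, took 19.8% and 18.0% of the total in CT23 replicates 1 and 2. It took 2.34% in CT23 replicate 3 and 0.233% to 1.93% in the CT1 libraries. Of listed reads, crystallins were 61.2% and 58.7% in CT23 replicates 1 and 2, and 1.84% to 16.4% in the other libraries. Rod markers summed to 1063 to 1291 CPM at CT23 and to 728 to 788 CPM at CT1. Fibroblast and sclera markers were far highest in CT1 replicate 3, at 1855 CPM against 747 to 991 CPM in the other 5 libraries. Skeletal muscle markers summed to 8.65 to 35.6 CPM at CT23 and to 38.0 to 156 CPM at CT1. RPE markers were abundant in each library, from 2249 to 2695 CPM for CT23 and from 3023 to 3598 CPM for CT1. Melanocyte and Schwann cell markers overlapped, with 148 to 184 CPM for CT23 and 171 to 211 CPM for CT1. In bulk tissue, fewer cells of a type and less RNA per cell cannot be told apart.

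The endothelial genes were few in reads, with 601 to 840 reads per library over all 10. Summed over the 10, the CT23 libraries held 47.8, 54.3 and 44.1 CPM and the CT1 libraries 46.2, 55.7 and 62.2 CPM. The times overlapped, with means of 48.7 ± 5.18 and 54.7 ± 8.07 CPM (SD, n = 3 each). Without CT1 replicate 3, a setting added after seeing the data, the CT1 mean was 50.9 CPM and the ratio to CT23 was 1.05, against 1.12 with all libraries. Markers of the pericytes and smooth muscle that wrap vessels summed to 155 to 193 CPM at CT23 and to 170 to 223 CPM at CT1, again highest in CT1 replicate 3. Of these, 7 of 8 tested had a log2 fold above 0, as did 47.8% of all genes tested. The smallest limma p was that of Abcc9, a potassium channel subunit of pericytes (log2 fold 0.64, limma adjusted p = 0.0896). The largest log2 fold was that of Des, the muscle filament gene desmin (1.87 ± 0.821 CPM at CT23 and 4.85 ± 2.06 CPM at CT1, limma adjusted p = 0.134). Des was highest in CT1 replicates 2 and 3, as were the summed skeletal muscle markers, whose part in it was not tested.

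No member passed the test for a difference between CT1 and CT23. The test was limma on log2(CPM + 1), with Benjamini-Hochberg adjustment over the 11342 genes whose mean reached 1 CPM, at an adjusted p of 0.05. It called 0 of these genes (0%), and 9 of the 10 members were tested. Tek lay below the filter. An unadjusted limma p under 0.05 was found for 2 of the 9, Plvap and Eng, which is 22.2%. The share of all genes tested was 21.8% in either direction, 9.39% higher and 12.4% lower, so the members' share is near the background. At a looser adjusted p of 0.1, 1 of the 9 was called, Plvap, against 4.38% of all genes. Whole reads were recovered from CPM. On these, quasi-likelihood tests in edgeR and limma-voom each called 0 members with 2 at an unadjusted p under 0.05. DESeq2 called 0 with 1, and it gave no adjusted p for 6 of the 9. The log2 fold was above 0 in 7 of the 9 and their median was 0.16, where 47.8% of all genes tested were above 0 and the median was -0.014. When totals left out crystallin reads, 6 of the 9 were above 0 and their median was 0.037. The median of all genes tested was then -0.169, so it fell as well. In 2 of the 9, Plvap and Eng, all 3 CT1 libraries lay above all 3 CT23 libraries, which held for 11.3% of all genes tested, and none of the 9 lay wholly below (16.3% of all; 27.6% in either direction).

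**Figure D1:**
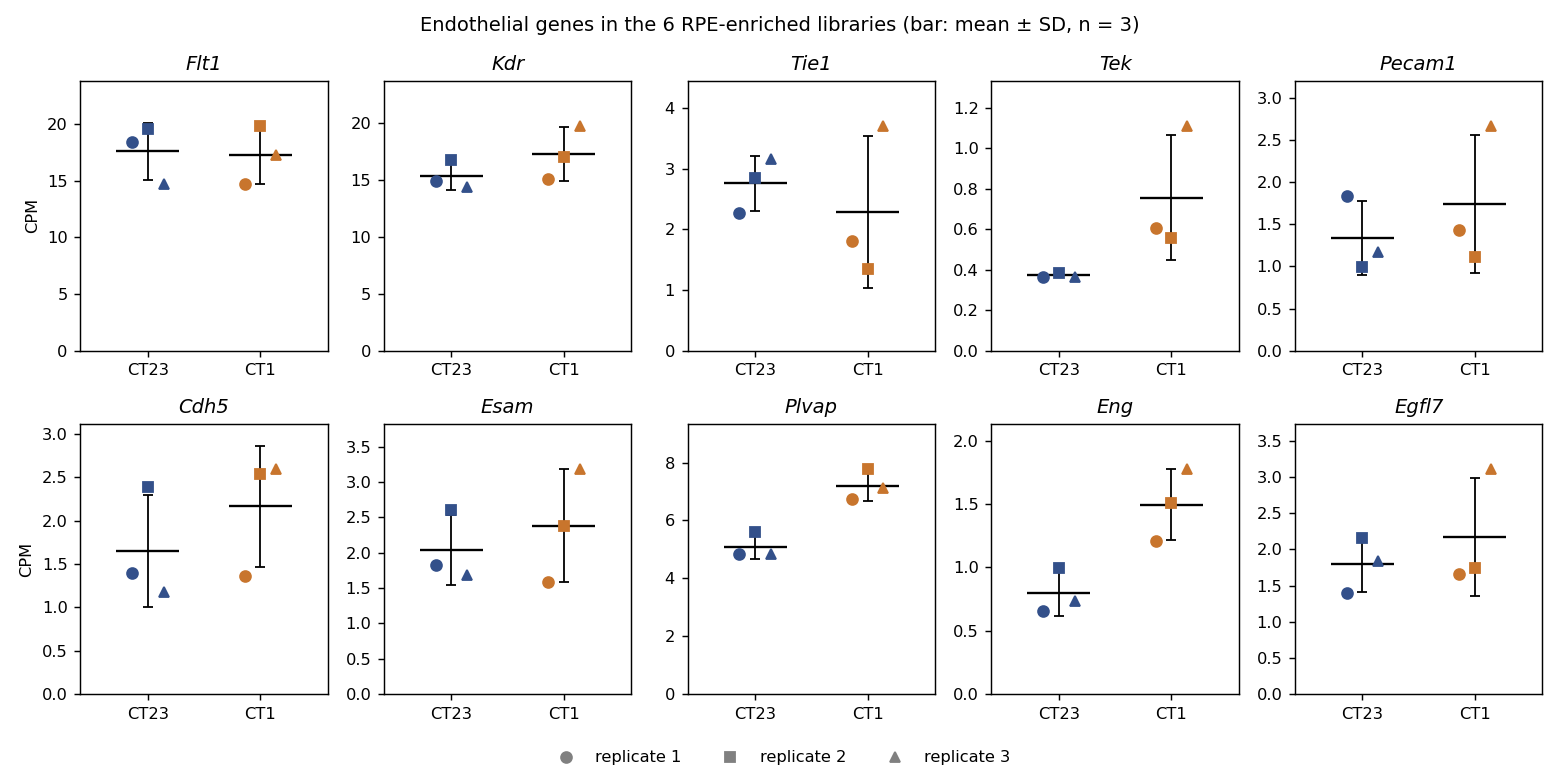
CPM (y axis, linear, from 0) of each gene in the 3 CT23 and 3 CT1 libraries (x axis), one point per library with its shape marking the replicate number, and the bar and whiskers giving mean ± SD (n = 3). Plvap, Eng and Tek are separated between the times, the other 7 genes overlap, and CT1 replicate 3 is the highest library for 8 of the 10.

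The VEGF receptor genes were the members with most reads, 195 to 266 per library each, and neither was separated between the times. Flt1, which encodes a receptor that binds VEGF tightly and signals weakly (chromosome 5, 147561604 to 147726011, minus strand), measured 18.4, 19.6 and 14.7 CPM before dawn (CT23), against 14.7, 19.8 and 17.3 CPM after it (CT1). The lowest and the highest libraries of both times nearly coincided. Its log2 fold of CT1 over CT23 was -0.024 (SE 0.142, 95% interval -0.35 to 0.30; limma adjusted p = 0.939). Flt1 has 2 coding transcripts in GENCODE M21 whose ends lie apart, and the table holds a single value for the gene, so a short soluble form cannot be separated from the full receptor.

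Kdr, the main signalling receptor for VEGF (chromosome 5, 75932827 to 75978458, minus strand), gave 14.9, 16.7 and 14.4 CPM for CT23, and the CT1 libraries gave 15.0, 17.0 and 19.7 CPM. The times overlapped and CT1 replicate 3 stood highest. The log2 fold was 0.15 (SE 0.119, 95% interval -0.12 to 0.43; limma adjusted p = 0.477), between 0.058 (without CT1 replicate 3) and 0.24 with single libraries left out, and -0.030 when totals left out crystallin reads. Under that scaling the median over all genes was -0.17 in place of -0.014. The ratio of Kdr to Flt1 within a library, which no scaling of totals can change, was 0.809, 0.855 and 0.975 at CT23 and 1.02, 0.856 and 1.14 at CT1, and it overlapped as well.

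Tie1 and Tek, the genes of the angiopoietin receptor and its partner, differed in sign from each other, on few reads. Tie1 did not pass the test, and Tek lay below its filter. Tie1 (chromosome 4, 118471191 to 118490061, minus strand) stood at 2.27, 2.84 and 3.15 CPM in the CT23 group and 1.81, 1.35 and 3.70 CPM in the CT1 group. CT1 held both the lowest libraries and the highest. The log2 fold was -0.25 (SE 0.248, 95% interval -0.82 to 0.32; limma adjusted p = 0.584), and it depended on single CT1 libraries. It was -0.039 without CT1 replicate 2 (limma adjusted p = 0.943) and -0.54 without CT1 replicate 3 (limma adjusted p = 0.180, unadjusted 0.0137).

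Tek (chromosome 4, 94739289 to 94874976, plus strand) had 5 reads in each CT23 library, and the CT1 libraries had 8, 7 and 15. These came to 0.366, 0.384 and 0.367 CPM and to 0.604, 0.555 and 1.11 CPM, so the times did not overlap, as was so for 10.7% of all 14008 genes with CT1 higher. A count of 5 reads has an exact 95% Poisson interval of 0.119 to 0.855 CPM in CT23 replicate 1, which holds the values of CT1 replicates 1 and 2; such intervals cover counting error only. With no filter on low values, over 14008 genes, the log2 fold was 0.34 (limma adjusted p = 0.197, unadjusted 0.0294). The ratio of mean CPM was 2.03. The ratio of Tek to Tie1 was 0.161, 0.135 and 0.116 at CT23 and 0.333, 0.412 and 0.300 at CT1, with no overlap. That ratio was picked out by the roles of the 2 genes and carries no test.

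Plvap, the gene of the fenestral diaphragm, had the smallest limma p among the 10 (chromosome 8, 71497765 to 71511752, minus strand). It was at 4.83, 5.61 and 4.84 CPM across CT23, and CT1 gave 6.72, 7.77 and 7.11 CPM, from 66 to 98 reads per library. Every CT1 library was above every CT23 library. The means were 5.09 ± 0.445 and 7.20 ± 0.530 CPM (SD, n = 3 each), a ratio of 1.41, with a log2 fold of 0.43 (SE 0.108, 95% interval 0.18 to 0.68). The limma adjusted p was 0.0982, which does not pass at 0.05. The spread of its reads within each time was no larger than counting error, with a variance of 0.515 times the Poisson value at CT23 and 0.502 times at CT1. CT1 replicate 3 did not lead here, and without that library the log2 fold was 0.44. When totals left out crystallin reads it was 0.26 and the limma adjusted p was 0.330 (unadjusted 0.126). The median of all genes tested was -0.169 under that scaling. With listed reads other than crystallins as totals, the log2 fold of Plvap was 0.38 (limma adjusted p = 0.0876). The median of all genes tested was then -0.059. Summed RPE, fibroblast and skeletal muscle markers were, like Plvap and Eng, higher in every CT1 library than in every CT23 library. Gene by gene, this held for 4 of 13 RPE, 5 of 9 fibroblast and 6 of 8 skeletal muscle markers tested. It held for 11.3% of all genes tested. Dct alone held 1427 to 2215 CPM of the RPE sum, which was most of it. The separation of the RPE sum rested on Dct, and without that gene the times overlapped. The part of these markers in the Plvap and Eng values was not tested. In the authors' deposited table the log2 fold of Plvap was 0.50, with a p-value of 0.00288.

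A limit on Plvap lies in its position. Its 3′ end falls within the annotated span of Gtpbp3 on the opposite strand, over 1819 bases, and the sources used here do not say whether reads were counted by strand. Gtpbp3 itself was at 2.05, 1.92 and 2.05 CPM at CT23 and at 2.64, 2.62 and 1.56 CPM at CT1, so its times overlapped.

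Eng (chromosome 2, 32646595 to 32682669, plus strand) was at 0.659, 0.999 and 0.733 CPM in CT23 libraries, with 1.21, 1.51 and 1.78 CPM in CT1 libraries. The times did not overlap, on 9 to 24 reads per library. The log2 fold was 0.47 (SE 0.140, 95% interval 0.15 to 0.80; limma adjusted p = 0.123), and 0.39 without CT1 replicate 3. The ratio of mean CPM was 1.88, larger than the log2(CPM + 1) scale shows because the gene is low. As for Plvap, its variance within a time was below the Poisson value, at 0.531 and 0.721 times. In the authors' deposited table its log2 fold was 0.91, with a p-value of 0.0555. The annotated end of Eng overlaps that of Fpgs on the opposite strand.

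The junction genes and Egfl7 did not separate the times. Pecam1, which also marks platelets and leukocytes, was at 1.83, 0.999 and 1.17 CPM for the earlier time and 1.44, 1.11 and 2.67 CPM for the later. Cdh5, the cadherin of endothelial contacts, was at 1.39, 2.38 and 1.17 CPM, and then at 1.36, 2.54 and 2.59 CPM. Replicate 2 was high at both times for Cdh5. Esam ranged from 1.69 to 2.61 CPM at CT23 and from 1.59 to 3.18 CPM at CT1. Egfl7 ranged from 1.39 to 2.15 CPM at CT23 and from 1.66 to 3.11 CPM at CT1, and its annotated span overlaps Gm20532 on the same strand and Agpat2 on the other. The highest library was CT1 replicate 3 in all 4 genes. Their log2 folds were 0.21 for Pecam1, 0.26 for Cdh5, 0.14 for Esam and 0.16 for Egfl7, with SE of 0.197 to 0.227 and limma adjusted p of 0.530 to 0.724. That of Cdh5 was 0.13 without CT23 replicate 3 and 0.46 without CT1 replicate 1.

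The excess of positive folds was not seen without CT1 replicate 3. With any other single library left out, 7 or 8 of the 9 members tested were above 0. CT1 replicate 3 was the highest of the 6 libraries for 8 of the 10, all but Flt1 and Plvap, so leaving it out lowers their folds by construction. It was highest for 23.2% of all genes tested. Without it, the folds of Pecam1, Esam and Egfl7 turned to -0.026, -0.030 and -0.038, and only 4 of the 9 members tested were above 0. Their median log2 fold was then -0.026, and that of all genes tested was -0.021. Fibroblast and sclera markers, given above, and macrophage markers were also highest in that library, the latter at 44.4 CPM against 22.8 to 29.9 CPM in the other 5. Their part in the endothelial values was not tested. Within CT1, the variance of reads was above the Poisson value for Tie1 (8.89 times), Pecam1 (5.08), Flt1 (4.86), Kdr (4.26), Egfl7 (4.03), Esam (3.57), Cdh5 (2.96) and Tek (1.65). Within CT23 it was highest for Flt1 (4.89) and Cdh5 (3.35).

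**Figure D2:**
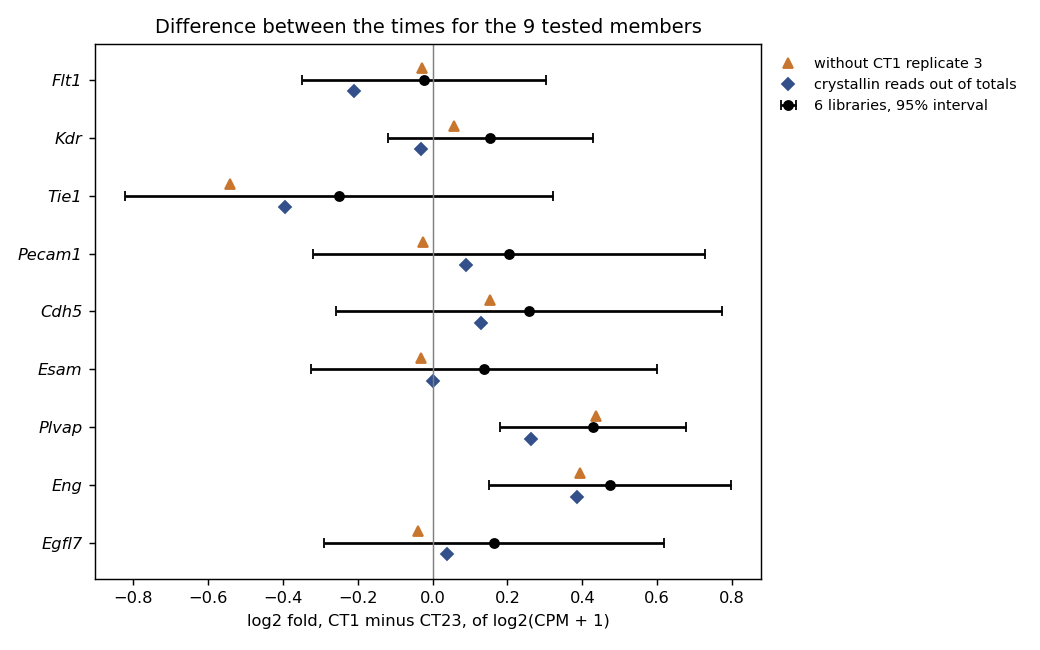
Log2 fold of CT1 minus CT23 on log2(CPM + 1) (x axis) for the 9 tested genes (y axis). Black points and bars are limma estimates with 95% intervals from all 6 libraries, triangles leave out CT1 replicate 3, and diamonds take crystallin reads out of the totals; the intervals of Plvap (0.18 to 0.68) and Eng (0.15 to 0.80) lie above 0 before adjustment over genes.

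The make-up of the endothelial reads was compared within libraries, where library totals drop out. Kdr took 31.1%, 30.8% and 32.6% of the summed CPM of the 10 genes in CT23 replicates 1, 2 and 3, and 32.6%, 30.4% and 31.7% in CT1 replicates 1, 2 and 3. It thus stayed within a narrow range at both times. Plvap took 10.1%, 10.3% and 11.0% at CT23 and 14.6%, 13.9% and 11.4% at CT1. Eng took 1.38%, 1.84% and 1.66%, and then 2.62%, 2.70% and 2.86%. Plvap, Eng and Tek were thus higher in share at CT1 in each library, and Flt1 and Kdr together were lower, at 66.1% to 69.5% against 59.4% to 66.0%. The times of that pair all but touched, and the shares of Flt1 and of Kdr each overlapped. These shares carry no test, and how often shares separate for other genes was not computed. Shares of 1 sum depend on each other, so a gain of some is a loss of others. The ratio of Plvap to Kdr was 0.325, 0.335 and 0.337 at CT23 and 0.447, 0.458 and 0.361 at CT1.

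**Figure D3:**
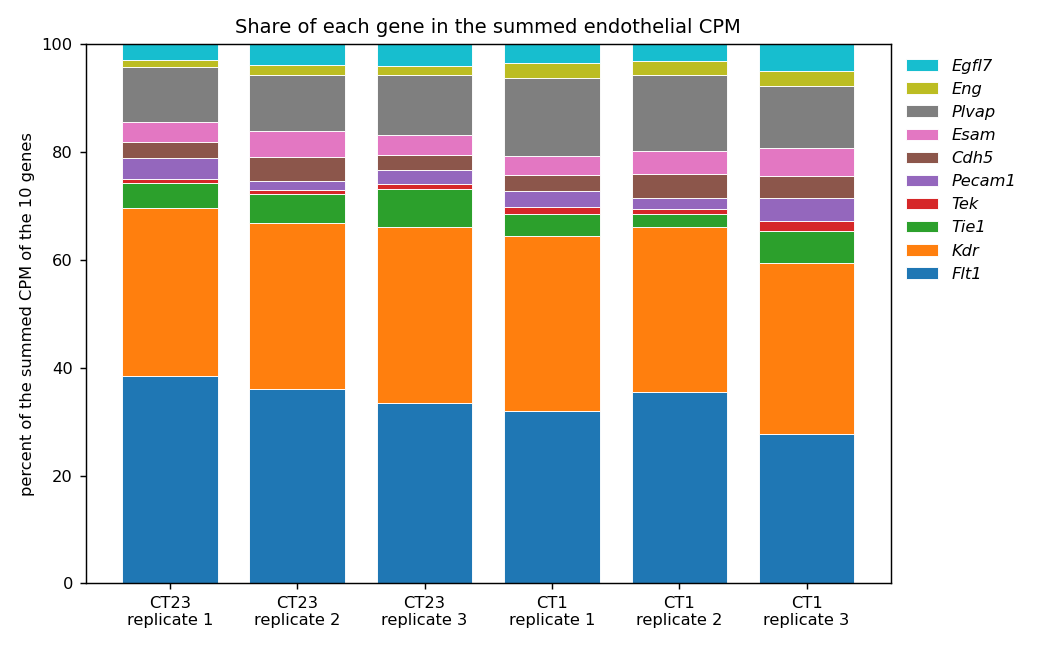
Percent of the summed CPM of the 10 genes (y axis) taken by each gene, as stacked bars for the 6 libraries (x axis). The Kdr segment stays between 30.4% and 32.6%, and the Plvap segment is 10.1% to 11.0% at CT23 and 11.4% to 14.6% at CT1.

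Other genes of the pathways in which the members act were taken from lists chosen by name, and none of them passed limma at an adjusted p of 0.05. Their signs are read against the 47.8% of all genes that were above 0, and they were not recomputed under other scalings. Of 7 VEGF ligands and co-receptors tested, 6 were above 0, with a median log2 fold of 0.29. Nrp1, a VEGF co-receptor, averaged 26.4 ± 2.42 CPM before dawn and 38.2 ± 9.76 CPM after it (SD, 3 libraries each; log2 fold 0.49, limma adjusted p = 0.158). Nrp2, its paralog, was at 23.8 ± 3.01 and 30.4 ± 3.78 CPM (log2 fold 0.34). Both were separated between the times. Vegfa, the ligand, was at 18.2, 13.4 and 12.1 CPM at CT23 and at 16.1, 19.2 and 16.0 CPM at CT1, overlapping, and Vegfd had a log2 fold of 0.47. The 3 angiopoietin axis genes tested were all above 0, led by Ptprb, the phosphatase that acts on the Tek receptor, at 5.65 ± 1.12 and 8.98 ± 2.20 CPM (log2 fold 0.57, limma adjusted p = 0.142). Angpt1, the activating ligand of Tek, was at 3.99 ± 1.27 and 5.01 ± 1.91 CPM, and Svep1 had a log2 fold of 0.0016.

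Of 12 BMP and Notch genes tested, 9 were above 0, and an unadjusted limma p under 0.05 was found for 2 with a positive fold and 2 with a negative one. Hey1, a target of Notch, had the largest log2 fold in size of the 12, with 8.20, 7.45 and 4.40 CPM at the earlier time, while CT1 gave 0.982, 1.67 and 3.11 CPM (log2 fold -1.42, SE 0.292, limma adjusted p = 0.0736). Its times did not overlap, and the gene is not particular to endothelium. Hes1, another Notch target, had a log2 fold of 0.35, and Jag1, a Notch ligand, -0.34. Among 11 endothelial transcription factors tested, 9 were above 0. Lmo2, a partner of blood and endothelial transcription factors, was at 3.08 ± 0.193 and 4.66 ± 0.853 CPM (log2 fold 0.46, limma adjusted p = 0.121). Ets2 had a log2 fold of 0.56 (limma adjusted p = 0.171). Klf4 was at 37.2 ± 17.7 and 56.2 ± 11.5 CPM (log2 fold 0.69, limma adjusted p = 0.295), and its times overlapped.

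Of 13 other pan-endothelial markers tested, 8 were above 0 and 5 below, with a median log2 fold of 0.11. Cd34, a surface sialomucin of capillary endothelium that fibroblasts also make, was at 3.74, 4.46 and 3.81 CPM for CT23 against 6.87, 7.45 and 11.5 CPM for CT1 (log2 fold 0.91, SE 0.178, limma adjusted p = 0.0736). It was separated and did not pass. Emcn, another endothelial sialomucin, had a log2 fold of 0.58 with overlap, and Mmrn2, a matrix protein bound to endothelium, 0.46 without. The summed level of these markers was 56.4 to 67.5 CPM at CT23 and 59.2 to 78.2 CPM at CT1, highest in CT1 replicate 3 as for the 10 members. Tspan7 alone held 22.6 to 27.7 CPM of it at CT23 and 19.0 to 23.7 CPM at CT1. The overlap of the sum rested on Tspan7, and without that gene the CT1 libraries lay just above the CT23 libraries.

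The label of the gene group points to choroid, and it was checked against markers of choroidal and of retinal vessels. Of 8 markers of fenestrated or capillary endothelium, 3 were tested, Plvap, Cavin2 and Cav1, with log2 folds of 0.43, 0.33 and 0.10. The other 5, Car4, Rgcc, Gpihbp1, Aplnr and Esm1, had no entry under these names in the deposited table. Summed, these 3 were at 21.8 to 27.4 CPM at CT23 and at 28.9 to 32.4 CPM at CT1, without overlap. Plvap is itself one of the 10 members and was separated, so this sum is not independent of them. Cavin2 and Cav1 each overlapped between the times. How often sums of other genes separate was not computed. Of 8 markers of retinal barrier endothelium tested, 3 were above 0 and 5 below, with a median log2 fold of -0.054. Cldn5, the tight junction claudin of barrier vessels, was at 3.15, 3.07 and 3.15 CPM at CT23 and at 3.32, 3.33 and 2.74 CPM at CT1. It was thus present in every library. Cldn5 is also among the other pan-endothelial markers and is counted in both lists, so its presence does not by itself mark barrier vessels. The barrier marker with the smallest limma p was Spock2, at 10.3 ± 0.696 and 8.19 ± 0.492 CPM (log2 fold -0.29, limma adjusted p = 0.152). Slco1a4, a transporter of barrier endothelium, had a fold of the other sign, at 7.77 ± 0.519 and 10.1 ± 2.42 CPM (log2 fold 0.32, limma adjusted p = 0.295), and its times overlapped. Most of the 10 genes are shared by all endothelium, and RNA from the 2 vascular beds cannot be told apart in these values. Arterial and venous markers were 3 above and 3 below 0. Ackr1, a chemokine-binding receptor of venules, and Sema3g, of arteries, had log2 folds of -0.30 and -0.33 and were lower in every CT1 library. Ephb4, a receptor of venous endothelium, had a log2 fold of 0.22 and was higher in every CT1 library. Lymphatic markers were 2 above and 2 below, with Prox1, which lens and retina also make, at -0.74 and Lyve1 at 0.43.

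**Figure D4:**
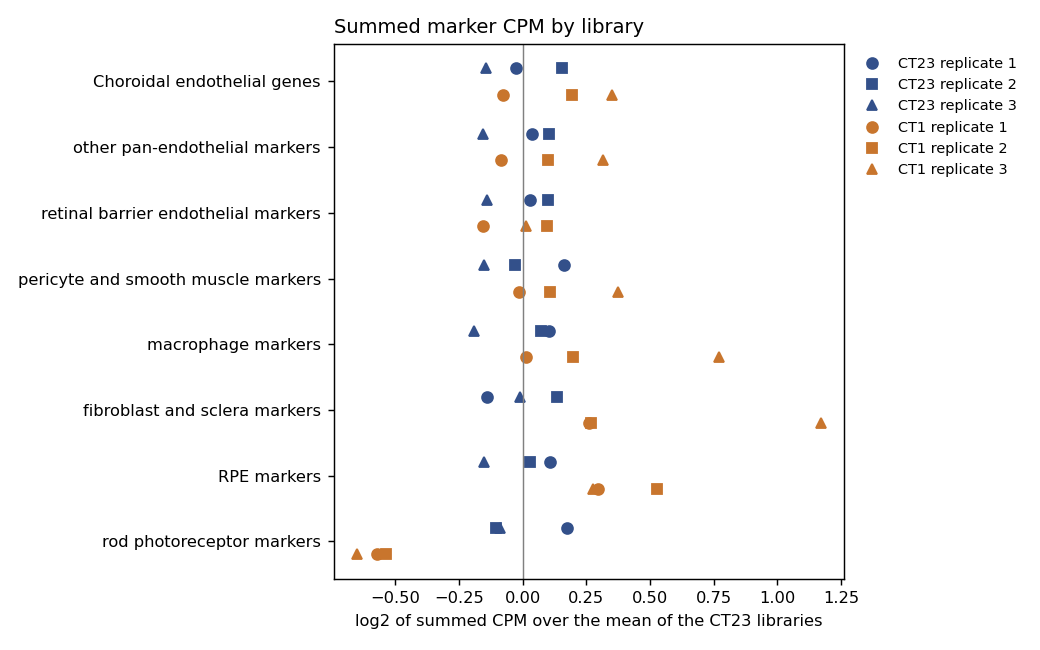
Log2 of the summed CPM over the mean of the CT23 libraries (x axis) for each marker list (y axis), one point per library with colour for time and shape for replicate. The sums of the 10 genes, the other pan-endothelial markers, the pericyte and smooth muscle markers and the macrophage markers overlap between the times with CT1 replicate 3 highest. The retinal barrier sums overlap with CT23 replicate 2 highest, RPE and fibroblast sums are higher and rod sums are lower at CT1 in every library. Cldn5 is counted in both the other pan-endothelial and the retinal barrier sums. The overlap of the other pan-endothelial sums rests on Tspan7, and the separation of the RPE sums rests on Dct.

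Pecam1 and Eng are also made by some blood cells. Of 9 erythrocyte and platelet markers, 4 had an entry in the deposited table. They summed to 113 to 154 CPM at CT23 and to 97.4 to 146 CPM at CT1, mostly haemoglobin beta, and the times overlapped. Pf4, the platelet chemokine, was at 3.41 ± 0.778 and 4.68 ± 0.981 CPM (SD, n = 3 each). The leukocyte marker Ptprc was at 0.845 to 0.953 CPM at CT23 and at 0.793 to 1.63 CPM at CT1. Their part in the levels of Pecam1 and Eng was not tested.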

How the data were processed

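Gene expression came from 6 libraries, and the sample titles gave each its time (CT23 or CT1, 3 each). The submitters' processing notes name edgeR 3.24.1, HTSeq, Bowtie2 2.1.0 and build mm10, with no role or order. Per the file headers, the authors deposited CPM for each library with their own log2 fold and p-value, which were used here only where the authors' deposited table is named. The deposited CPM values were whole multiples of 1 read within 0.01 of a read in 100% of values, which gave the library totals; 3 reads, the limit that a count of 0 allows, came to 0.220 to 0.238 CPM. Of 14083 entries, 75 named no gene (0.0432% to 0.102% of listed reads) and were left out. Coordinates, counted from 1, are those of GENCODE M21 on mm10.

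Differences were tested with limma 3.58.1 (mean-variance trend, log2(CPM + 1), mean of at least 1 CPM, two-sided, time as the only factor) in R 4.3.3. Log2 folds understate the change of low genes. edgeR 4.0.16, DESeq2 1.42.0 and limma-voom were run on the recovered reads. Each of these 4 tests was run on simulated counts with known changes. The members, gene lists, tests and alternatives were chosen with earlier results of these data known. The text names all members and up to 3 genes with the smallest limma p from each other list; Cldn5 and Ptprc are named as defining markers. Vegfa, Dct, Rasip1, Tspan7, Calcrl, Ramp2 and the genes that overlap members were added after values were seen. The labels do not say that libraries came from separate litters or days, so p-values measure the spread between these libraries. No library was a copy of another: every pair differed beyond sampling noise (chi-square of 5.59 to 219 per gene).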

Additional observations from a re-analysis of the deposited data

How the results depend on the processing

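Main counts were 0 genes and 0 members differing. With a stricter minimum, a mean of 5 CPM, limma gave 98 genes (15 higher, 83 lower), DESeq2 gave 138 (with no adjusted p for 5937 of 11342 genes, 6 of 9 members among them), limma with crystallin reads out of the totals gave 360, and an adjusted p under 0.1 gave 497 genes and 1 member, Plvap. None of the other settings called a member, and with each library left out in turn limma gave 0 to 4 genes, the 4 without CT23 replicate 3, and 0 members. With crystallin reads out of the totals, an unadjusted limma p under 0.05 was found for 323 genes higher at CT1 and 2364 lower, where the reported fit gave 1065 and 1404.

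The log2 fold of Flt1 turned to 0.0060 with DESeq2, to 0.0059 with edgeR under DESeq2 size factors and to 0.21 without CT23 replicates 1 and 2, and ranged from -0.14 to 0.079 with single libraries left out. Kdr turned to -0.030 with crystallin reads out of the totals. With single libraries left out, Pecam1 ranged from -0.026 to 0.37, Egfl7 from -0.038 to 0.28, Esam from -0.030 to 0.32, Cdh5 from 0.13 to 0.46 and Tie1 from -0.54 to -0.039. The cause was not tested. Plvap (adjusted p 0.0780 to 0.586, limma, edgeR or DESeq2) and Eng (0.105 to 0.593, with none from DESeq2) stayed above 0 in each setting run on them. With the replicate number as a block, limma called 0 genes and 0 members. Correlations of deviations from the time mean were -0.25, 0.38 and -0.04 for same-numbered libraries, and -0.70 to 0.77 for the others. With 3 libraries for each time, these values cannot show whether the numbers pair libraries. Tek has a value from the fit with no filter alone. Depth limits Tek and Eng, with 5 to 24 reads per library.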
